A study of Mus musculus with 93 samples.

Results

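The genes described here are 8 tubulin genes and the vimentin gene of the mouse: the alpha tubulins Tuba1a and Tuba1b, the beta tubulins Tubb2a, Tubb2b, Tubb3, Tubb4b and Tubb5, the gamma tubulin Tubg1, and Vim. They were taken by symbol from the authors' gene table, 9 of 32640 symbols, and were followed across 5 stages of olfactory neuron development and from cell to cell. RNA sequencing had been run on single cells of C57BL/6 mice that were isolated by hand after the olfactory epithelium was dissociated, and cDNA was made with an oligo(dT) primer and amplified by PCR. By the labels there were 11 Progenitor and 9 Precursor cells, then 27 cells of the Early and 13 of the Late Immature Neuron stage, and 25 Mature Neuron cells. No treatment is named. They give neither the age of the mice nor the way cells were assigned to stages, and they name no animal. Each stage is therefore a single sample, stages are compared without a test, and an SD describes the spread among cells. Another 8 libraries are technical repeats of 8 of the 85 cells and were used only to measure error.

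Microtubules are polymers of alpha and beta tubulin dimers, and gamma tubulin starts their growth at the centrosome. The isotypes are encoded by separate genes whose proteins differ mainly in their acidic tail, the part that meets motors, binding proteins and modifying enzymes. Vimentin forms intermediate filaments, and olfactory sensory neurons are known for using it where most neurons use neurofilaments. In this epithelium neurons are made from basal progenitors throughout life, class III beta tubulin is a usual marker of the young ones, and the mature ones carry cilia that hold the odorant receptors.

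The ends of the coding sequences show how the beta tubulin genes differ from each other at that place. For the 5 beta tubulins they are printed from coding base 1251, counted from the start codon, to the stop codon, from the GENCODE vM21 transcripts on GRCm38. Capitals mark all that follows the last run of 8 bases shared by all 5 genes.

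Tubb2a: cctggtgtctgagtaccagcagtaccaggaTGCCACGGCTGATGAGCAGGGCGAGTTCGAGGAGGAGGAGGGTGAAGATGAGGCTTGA
Tubb2b: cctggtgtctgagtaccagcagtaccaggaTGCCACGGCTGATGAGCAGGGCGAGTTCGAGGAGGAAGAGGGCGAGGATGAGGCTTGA
Tubb3: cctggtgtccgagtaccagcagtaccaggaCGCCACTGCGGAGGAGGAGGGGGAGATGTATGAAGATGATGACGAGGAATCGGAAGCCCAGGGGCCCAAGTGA
Tubb4b: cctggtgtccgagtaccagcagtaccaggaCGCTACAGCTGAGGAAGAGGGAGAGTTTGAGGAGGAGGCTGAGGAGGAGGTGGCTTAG
Tubb5: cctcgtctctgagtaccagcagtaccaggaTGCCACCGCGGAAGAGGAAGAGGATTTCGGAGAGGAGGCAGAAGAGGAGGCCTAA

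The Tubb3 tail was the longest, with 73 bases in capitals against 58 in Tubb2a, Tubb2b and Tubb4b and 55 in Tubb5. Tubb2a and Tubb2b were identical at 96.5% of 1338 coding bases, and the other beta pairs at 82.1 to 84.2%. The alpha tubulins were closer still, with 98.3% of 1356 coding bases identical.

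These pairs are also neighbours in the genome (mm10, all on the minus strand). Tuba1b (chromosome 15, 98931425 to 98934565) and Tuba1a (chromosome 15, 98949841 to 98953551) lie 15.275 kb apart, and Tubb2a (chromosome 13, 34074301 to 34078008) and Tubb2b (chromosome 13, 34127008 to 34130354) lie 48.999 kb apart. The other genes are alone: Tubb3 (chromosome 8, 123411424 to 123422015, plus strand), Tubb4b (chromosome 2, 25222160 to 25224702, minus), Tubb5 (chromosome 17, 35833926 to 35838306, minus), Tubg1 (chromosome 11, 101119938 to 101126419, plus) and Vim (chromosome 2, 13573952 to 13582826, plus). Of all words of 50 bases in a transcript, another gene held 72.9% for Tuba1a, 73.8% for Tuba1b, 49.6% for Tubb2a, 39.3% for Tubb2b, 50.9% for Tubb4b and 14.1% for Tubg1. For Tubb4b most of these lay in its pseudogene Tubb4b-ps1 (43.6%). It was 0.115% for Tubb5 and 0 for Tubb3 and Vim. Shared words lay before the stop codon: past it, none was shared for any member but Tubb5 (0.198%). How shared reads were divided is not given in the sources used here, so values of close copies are less certain than those of Tubb3, Tubb5 and Vim. Some cells nonetheless had 1 copy high and the other near 0. The Precursor cell D398 held Tuba1a at an FPKM (fragments scaled for transcript length and library total) of 1890 and Tuba1b at 0.362, and in 46 of the 84 cells with Tuba1a at 100 or more, Tuba1b was below 1% of it.

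Depth differed between libraries: the fragments behind 1 FPKM, for a 1 kb transcript, numbered 0.556 to 9.73, and stage medians lay between 4.12 (Mature Neuron) and 6.74 (Precursor). Transcripts of the mitochondrial genome made up 44.4% of summed FPKM at the median of Progenitor and 67.0% at that of Mature Neuron cells. Cell names carry numbers in 4 separate ranges, of which D316 to D434 alone contained all 5 stages (3, 5, 19, 6 and 4 cells). Values within it are given where they change a result. The neutrophil genes S100a8 and S100a9 stood at 100 or more in 8 Progenitor cells, all of D168 to D205, and in the Precursor cell D179. By a wider rule, at least 2 genes of another cell type's list at 100 or more, 22 cells held such RNA: 8 Progenitor, 2 Precursor and 9 Mature Neuron cells, with 1 cell of the Early and 2 of the Late Immature Neuron stage. All 8 Progenitor cells of D168 to D205 are among them, so values within D316 to D434 and values without the 22 cells rest on the same 3 Progenitor cells. The summed FPKM of the sustentacular list had stage medians of 178.3, 2.10, 4.18, 22.3 and 318.4, and that of the blood and immune list a median of 447 and a highest value of 804 in Progenitor cells. Their part in the results was not tested. The stage labels went with the progenitor and mature neuron lists. The mature neuron list summed to medians of 8.20, 28.7, 489, 12725 and 13997, and the progenitor list to 380, 100, 0.654, 0.251 and 0.0975. The immature neuron list summed to medians of 133.6, 511.7, 1545.6, 139.5 and 227.6. It was highest in Early Immature Neuron cells, but lower in Late Immature than in Mature Neuron cells. At least 2 of its genes stood at 100 or more in 25 Early Immature, 0 Late Immature and 8 Mature Neuron cells. This list thus did not go with the Late Immature Neuron label. The library labelled Early Immature Neuron D357 went against its label. D357 is not among the 22 cells, so values without them still include it. It held the leukocyte genes Cd52 at 1626, Coro1a at 3047 and Ptprc at 99.9, and the neuronal gene Stmn2 at 1.78, where the other 26 cells of its stage had Stmn2 between 169.02 and 1765. Coro1a was chosen after its value was seen. Among Progenitor cells, D337 held the progenitor list at only 15.7, with Mki67 at 0. Its precursor list summed to 918 and its immature neuron list to 1790. D337 is 1 of the 3 Progenitor cells on which values within D316 to D434 and without the 22 cells rest. D172 held the progenitor list at 40.2 and the precursor list at 1648. Both were kept under their label.

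Across stages, a different beta isotype led in early and in late cells. By median share Tubb5 led the beta tubulins from the Progenitor to the Early Immature Neuron stage. Tubb4b led in its place in Late Immature and Mature Neuron cells. Tuba1a led Tuba1b by median share in every stage, with 66.7% in Progenitor and 99.9% in Mature Neuron cells. By their means Tuba1b was highest in Progenitor, Tubb3 in Precursor and Vim in Early Immature Neuron cells, and Tubb2b was about as high in Precursor (6.95) as in Early Immature Neuron cells (6.85, and 7.10 without D357). Differences are given as the later stage minus the earlier in mean log2(FPKM + 1), and a gene counted as higher or lower at a difference of at least 1, provided that 50% or more of the cells in 1 of both stages had it detected (FPKM of at least 1).

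**Figure D1:**
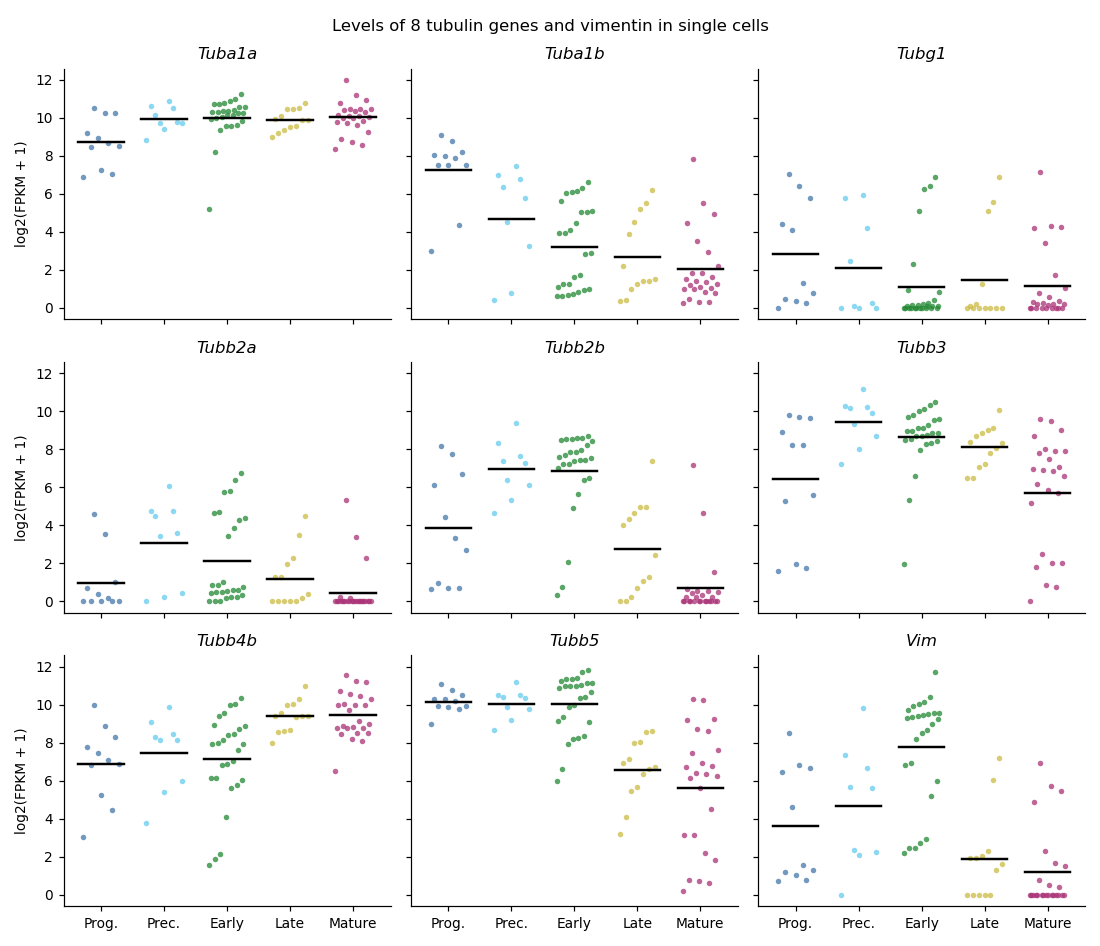
Level of each gene in each of the 85 cells, as log2(FPKM + 1), by stage (Progenitor, Precursor, Early Immature, Late Immature and Mature Neuron). Points are single cells and black lines are means. Tubb5 has a mean of 10.01 in Early and 6.57 in Late Immature Neuron cells, Tubb4b one of 7.13 and 9.40, and Vim peaks at 7.75 in Early Immature Neuron cells.

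From Progenitor to Precursor cells all 9 members passed that filter, and 5 were higher, Tuba1a, Tubb2a, Tubb2b, Tubb3 and Vim, beside 20.1% of the 4321 genes compared. Tuba1b was lower, beside 21.6% of genes. In log2 terms the median difference of the 9 members was 1.05 and that of all genes compared -0.03. From Precursor to Early Immature Neuron cells 8 members passed, with Vim higher (22% of 4006 genes) and Tuba1b lower (28%). The medians were then -0.33 for the members and -0.26 for all genes.

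From Early to Late Immature Neuron cells 7 members passed. Tubb4b was higher, beside 32.5% of 4144 genes, and Tubb2b, Tubb5 and Vim were lower, beside 16% of genes. The medians lay on opposite sides of 0, at -0.51 for the members and 0.41 for all genes. From Late Immature to Mature Neuron cells 7 passed, none was higher (4.54% of 3835 genes) and Tubb2b and Tubb3 were lower (32.7%). Tubb5, at -0.98, lay just outside the limit. Scaling FPKM to the sum off the mitochondrial genome moved the median of all genes in this step from -0.58 to -0.99, and scaling by the median of ratios moved it to -0.33. Relative to either background Tuba1a and Tubb4b stayed above it, but the difference of Tuba1a went from 0.12 to -0.59 under the first.

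Over the whole course, from Progenitor to Mature Neuron cells, 8 members passed. Tuba1a and Tubb4b were higher, beside 25.2% of 4467 genes. Tuba1b, Tubb2b, Tubb5, Tubg1 and Vim were lower, beside 46.3% of genes, so a lower level was common among all genes in this comparison. The median was -1.66 for the members and -0.81 for all genes. Tubb2b, Tubg1 and Vim passed the filter through Progenitor cells alone. A gene that passes through 1 stage alone is by that filter likely to be higher in it. The genes behind the shares of all genes were filtered in the same way. Each stage enters at least 2 of these comparisons, so their differences share cells.

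Tuba1a, the main alpha tubulin of young neurons, was high in every stage. Its FPKM in Progenitor cells was 117 at the lowest, 413 at the median and 1477 at the highest. Precursor cells ran from 464 to 1890 (median 865), Early Immature Neuron cells from 35.5 to 2424 (1218), Late ones from 505 to 1789 (952) and Mature Neuron cells from 328 to 4079 (1103). All stages overlapped, and only the Progenitor mean stood apart, at 8.73 ± 1.29 (SD, n = 11 cells) in log2(FPKM + 1) against 9.90 to 10.02 in the other stages. The lowest Early Immature Neuron value was that of D357. Without it the stage ran from 291 to 2424.

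The Progenitor mean of Tuba1a was lower than the Precursor mean by 1.23, which was 0.74 within D316 to D434 and 0.77 without the 22 cells holding other cell types' genes. Against Mature Neuron cells the difference of 1.30 was 0.10 within D316 to D434, 0.59 without the 22 cells and 0.49 when FPKM was scaled to the sum off the mitochondrial genome. Tuba1a thus had nearly equal means at both ends of the course in that number range. There the 3 Progenitor cells held 365, 483 and 1477. The 4 Mature Neuron cells had a median of 685 and a highest value of 1359. The 1477 was that of D337, whose progenitor list summed to 15.7 against a stage median of 380. The part of this cell in the small difference was not tested.

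Tuba1b, a widely expressed alpha tubulin, went the other way. It ran from 6.94 to 547 in Progenitor cells (median 238) and from 0.362 to 173 in Precursor cells (median 54.3). In Early Immature Neuron cells it ran from 0.538 to 97.9 with a median of 6.35. Late Immature and Mature Neuron cells had medians of 1.92 and 1.54, with maxima of 73.2 and 231.85. Most Progenitor cells were thus above nearly all neurons, 9 of 11 reaching 100 against 0 of 27, 0 of 13 and 1 of 25 cells of the 3 neuron stages, but no neighbouring stages were free of overlap. In log2 terms Tuba1b differed by -2.56 from Progenitor to Precursor, by -1.49 from Precursor to Early Immature Neuron and by -5.23 from Progenitor to Mature Neuron cells. Within D168 to D205 the first was -1.45 and the second -3.03, and with medians over cells the second was -2.91. The last value was -2.06 within D316 to D434, where 3 of 4 Mature Neuron cells, unlike most others of that stage, kept Tuba1b above 10. That range also gave 1.59 from Late Immature to Mature Neuron cells in place of -0.67.

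The exchange of the alpha tubulins was clearest as a share of Tuba1a and Tuba1b together in the same cell. At the median Tuba1b made up 33.3% in Progenitor and 5.91% in Precursor cells, 0.503% and 0.260% in the Early and Late Immature Neuron stages, and 0.127% in Mature Neuron cells. Progenitor cells varied most, from 1.16% in D172 to 74.2% in D184, and Tuba1b led in 4 of 11 of them. Those 4, D174, D175, D184 and D189, are all of D168 to D205 and all among the 22 cells. In D316 to D434 the Progenitor cells D330, D393 and D337 held 27.4%, 33.3% and 1.29%. The 2 lowest, D172 and D337, held Mki67 at 1.44 and 0. The part of number range and of other cell types' RNA was not tested. Past the Progenitor stage Tuba1b led in no cell but D357 (65.5%). The highest Precursor share was 13.8% (D383), which lay below the median of Progenitor cells.

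**Figure D2:**
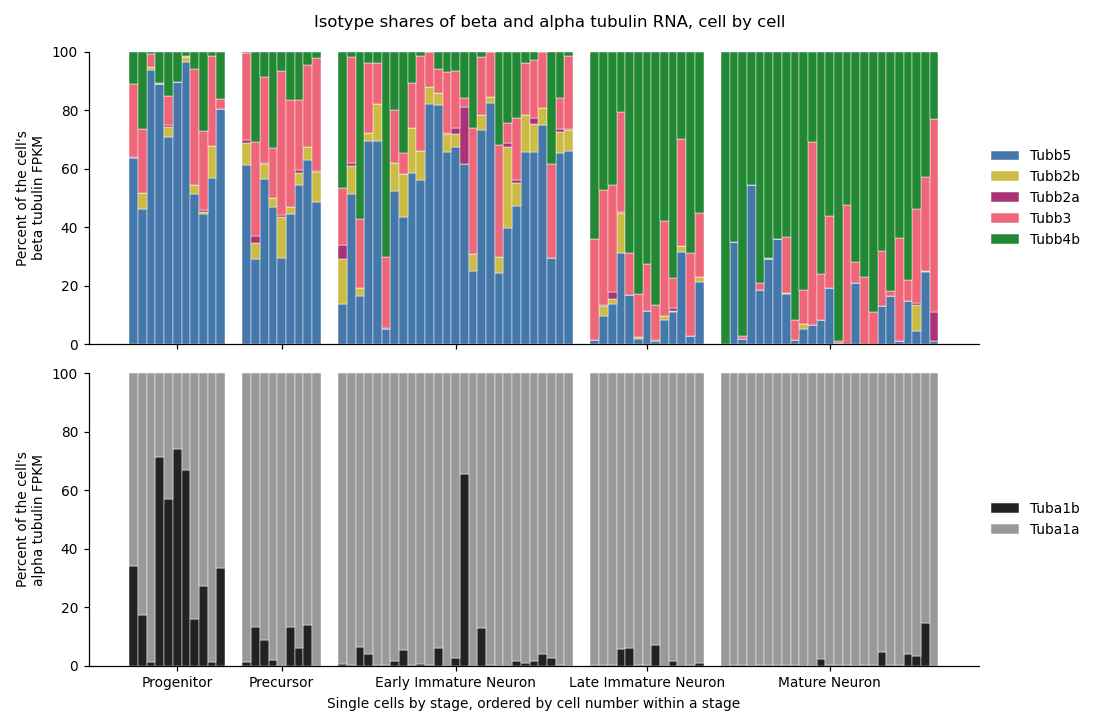
Share of each isotype in the summed FPKM of the 5 beta tubulins (top) and of Tuba1a and Tuba1b (bottom). Each bar is 1 cell, grouped by stage and ordered by cell number. The median share of Tubb5 is 61.5% in Early and 11.2% in Late Immature Neuron cells, and that of Tubb4b 7.07% and 63.9%. Tuba1b reaches a median of 33.3% in Progenitor cells alone.

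Tubb5, a beta tubulin of most dividing and growing cells, was the leading beta isotype up to the Early Immature Neuron stage. It ran from 507 to 2175 in Progenitor cells (median 1180), from 410 to 2345 in Precursor cells (1318) and from 61.9 to 3618 in Early Immature Neuron cells (1651). In Late Immature Neuron cells it ran from 8.29 to 394.4 with a median of 103, and in Mature Neuron cells from 0.158 to 1263 with a median of 81.2. All Progenitor and Precursor cells lay above all Late Immature Neuron cells. Early Immature Neuron cells overlapped them: D357 at 61.9, D202 at 98.0 and 4 others, up to 321, lay below the highest Late Immature Neuron cell.

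The Tubb5 mean differed by -3.44 from Early to Late Immature Neuron cells, more than the larger SD of 1.64. Leaving out any 1 cell it lay between -3.61 and -3.16, and within D168 to D205, with 2 Late Immature Neuron cells, it was -2.74. Within D213 to D274 the means were 8.90 in 2 Early and 6.84 in 4 Late Immature Neuron cells. In log2(FPKM + 1), the means of the earlier stages were 10.16 ± 0.56 (SD, n = 11 cells), 10.06 ± 0.77 (n = 9) and 10.01 ± 1.57 (n = 27), and those of the later 6.57 ± 1.64 (n = 13) and 5.59 ± 3.18 (n = 25). The large SD of Mature Neuron cells came from a wide spread in both directions. D55 and D95 held 1263 and 1225, as much as a Progenitor cell, while 4 cells were below 1. D95 also held the sustentacular genes Cbr2, Sec14l3 and Ugt2a1 at 100 or more, and D55 was not among the 22 cells.

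Tubb4b, a beta tubulin found in cilia among other places, led where Tubb5 was low. It ran from 7.24 to 1014 in Progenitor cells (median 136), from 12.8 to 928 in Precursor cells (286) and from 2.004 to 1328 in Early Immature Neuron cells (242.2). In Late Immature Neuron cells it ran from 248 to 2003 (672) and in Mature Neuron cells from 91.3 to 3023 (557). The groups overlapped, but the later stages held few low cells: every Late Immature Neuron cell and 24 of 25 Mature Neuron cells held 100 or more, against 18 of 27 Early Immature Neuron cells. The difference from Early to Late Immature Neuron cells was 2.27, close to the SD of 2.43 in the earlier stage. It was 2.87 within D316 to D434, 1.47 with medians over cells and 0.25 within D168 to D205, where there are only 2 Late Immature Neuron cells, at 397 and 402. From Late Immature to Mature Neuron cells it was 0.05, and -0.66 when scaled to the sum off the mitochondrial genome. Over the whole course Tubb4b differed by 2.55 and Tubb5 by -4.56.

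As a share of the 5 beta tubulins in a cell, Tubb5 made up 71.0% at the median in Progenitor and 48.5% in Precursor cells, 61.5% and 11.2% in the Early and Late Immature Neuron stages, and 8.15% in Mature Neuron cells. For Tubb4b these medians were 10.7%, 8.50%, 7.07%, 63.9% and 70.7%. Tubb5 led in 11 of 11, 7 of 9, 21 of 27, 0 of 13 and 1 of 25 cells of the 5 stages. Tubb4b led in 0, 0, 4, 11 and 22 cells, and Tubb3 in 0, 2, 2, 2 and 2. The cell where Tubb5 led among Mature Neuron cells was D95 (54.3%). Within D316 to D434 the Mature Neuron share of Tubb4b was lower, 48.4%. The summed FPKM of the 5 genes had medians of 1281, 2999, 2594, 1201 and 1120 in stage order, so the total was highest in Precursor and Early Immature Neuron cells. Fewer transcripts and a larger share of other RNA in a library cannot be told apart in these values.

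Tubb3, the neuronal class III beta tubulin, was present in nearly all cells and highest in Precursor cells. In Progenitor cells it ran from 1.99 to 909 (median 296), and the stage held low and high cells side by side: D174, D184 and D189 were below 3, and 6 cells were at 100 or more. Precursor cells ran from 151 to 2276 (962), Early Immature Neuron cells from 2.91 to 1447 (464; from 39.6 without D357) and Late Immature Neuron cells from 88.2 to 1087 (321). The later means were each somewhat lower: -0.82 from Precursor to Early Immature Neuron and -0.50 from Early to Late Immature Neuron cells. Both were within the SD of cells. The Progenitor to Precursor difference of 3.01 was 1.92 within D316 to D434, 1.96 without the 22 cells and 1.70 with medians over cells.

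Mature Neuron cells ran from 0 to 761 for Tubb3 (median 113), and the mean differed from that of Late Immature Neuron cells by -2.40 (-1.50 with medians over cells). The size of this difference was not the same in all number ranges. In the 5 Mature Neuron cells of D29 to D97, Tubb3 lay between 0.820 and 56.6, in the 16 of D213 to D274 between 0 and 722 (median 120), and in the 4 of D316 to D434 between 51.8 and 761 (median 385). The 6 Late Immature Neuron cells of D316 to D434 lay between 88.2 and 553, so within that range the difference was 0.08 with the sign turned. Within D213 to D274 it was -1.59 (4 Late Immature Neuron cells, 135 to 408). D29 to D97 holds 5 Mature Neuron cells and 1 Late Immature Neuron cell (D77, 1087), so its number range and the stage cannot be told apart. The median share of Tubb3 in beta tubulin was 28.3% in all Late Immature and 10.9% in all Mature Neuron cells, and within D316 to D434 it was 24.97% and 32.1%.

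**Figure D3:**
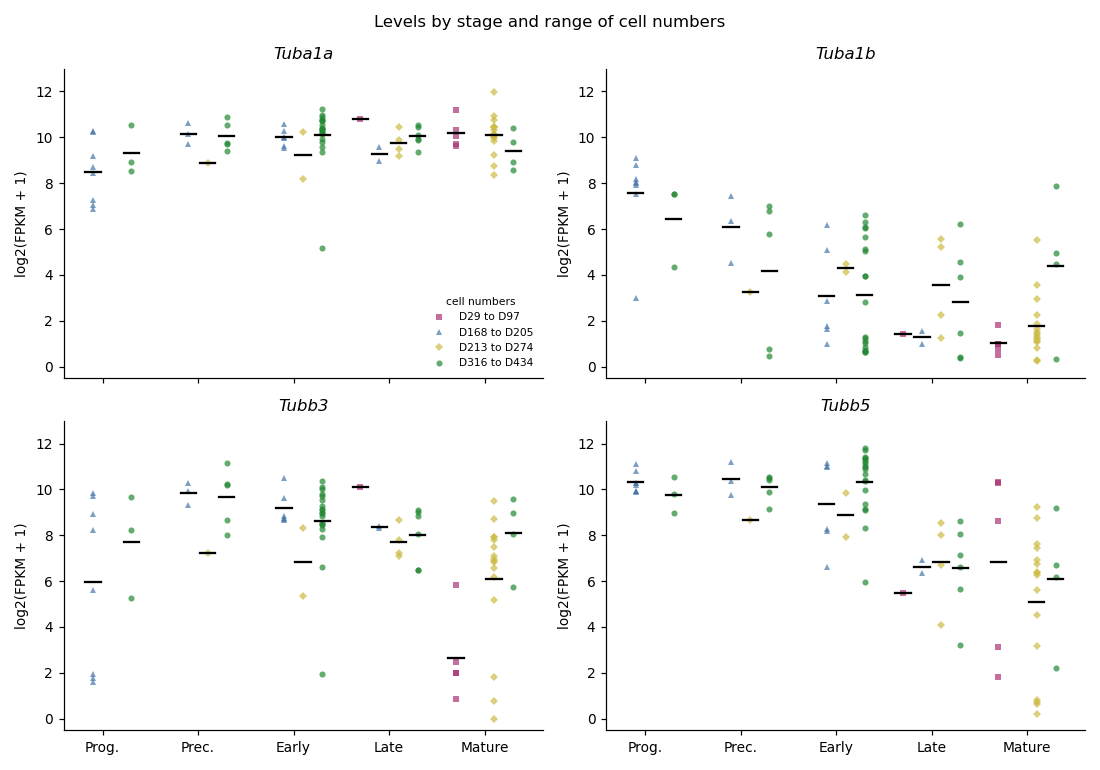
Levels of Tuba1a, Tuba1b, Tubb3 and Tubb5 as log2(FPKM + 1) by stage and by range of cell numbers. Points are cells, black lines are means. Tubb3 in Mature Neuron cells has a mean of 2.64 in D29 to D97, 6.10 in D213 to D274 and 8.08 in D316 to D434, while the mean of Tubb5 in Late Immature Neuron cells lies between 5.47 and 6.84 in all 4 ranges.

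Tubb2b, a beta tubulin of migrating and extending young neurons, was high mainly in Precursor and Early Immature Neuron cells. It ran from 0.542 to 283 in Progenitor cells (median 9.16), from 24.4 to 657 in Precursor cells (156) and from 0.264 to 409 in Early Immature Neuron cells (183). In Late Immature Neuron cells the median was 4.4 and the highest value 166 (D230), and in Mature Neuron cells the median was 0 and the highest value 145 (D329). It was detected in 25 of 27 Early Immature Neuron cells (92.6%, exact Clopper-Pearson 95% interval 75.7 to 99.1) but at the Mature Neuron stage in only 3 of 25 (12%, 2.55 to 31.2). These intervals cover counting error only. D230 and D329 both held sustentacular genes at 100 or more, among them Cyp2g1 and Cbr2.

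In log2 terms Tubb2b was higher by 3.11 from Progenitor to Precursor cells and differed by -4.07 from Early to Late Immature Neuron cells, and each kept its sign and size of at least 2 within D316 to D434 (3.25 and -4.22) and within D168 to D205 (3.62 and -2.13). With a pseudocount of 10 they were 2.02 and -2.81. In the order of its stage levels, Early Immature Neuron exceeded Progenitor cells by 3.01, just over the larger SD of 2.95, and the other neighbours did not differ by more than theirs. The further step to Mature Neuron cells was -2.09, and it was -0.53 within D316 to D434 and -0.80 with a pseudocount of 10. Over the whole course Tubb2b differed by -3.15, which was -1.69 within D316 to D434 and, for pseudocounts of 10 and 0.1, -1.51 and -5.07.

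Tubb2a, its near copy, had a lower mean in every stage. Its median was 11.0 in Precursor cells and below 1 in every other stage: 0.139 in Progenitor cells, 0.682 and 0.329 in the Early and Late Immature Neuron stages, and 0 in Mature Neuron cells. It was detected in 3 of 11, 6 of 9, 11 of 27, 6 of 13 and 3 of 25 cells in stage order. Only the Precursor stage had it in most cells. Single Early Immature Neuron cells held more, up to 105 in D168. Its Progenitor to Precursor difference of 2.13 was 0.91 within D316 to D434, 4.16 within D168 to D205, 3.40 with medians over cells, 1.34 without the 22 cells and 0.88 with a pseudocount of 10. In first libraries Tubb2a never led, and only in D357 (19.4%) and the Mature Neuron cell D433 (9.91%) did it pass 5% of beta tubulin. The second library of the Mature Neuron cell D243 held it at 7.82%, where the first held 0.

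Tubg1, the gamma tubulin of the centrosome, was near the limit of detection. Its highest share of cells was in the Progenitor stage, 6 of 11 (54.5%, 23.4 to 83.3), and its lowest in the Early Immature Neuron stage, 5 of 27 (18.5%, 6.30 to 38.1). Precursor, Late Immature and Mature Neuron cells had it in 4 of 9, 4 of 13 and 7 of 25. The highest value of each stage was 133, 60.8, 119, 118 and 141, so a few cells of every stage held it at a clear level. For Tubg1 3 fragments were worth an FPKM of 0.278 at the median of Progenitor and 0.404 at that of Mature Neuron cells, so levels under 1 rest on a handful of fragments. Its Progenitor to Mature Neuron difference of -1.66 was -0.45 within D316 to D434, -0.63 without the 22 cells and, for pseudocounts of 10 and 0.1, -0.79 and -2.65.

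Vim had its highest mean in Early Immature Neuron cells. In Progenitor cells it ran from 0.624 to 366 (median 1.94) and in Precursor cells from 0 to 910 (47.4). Early Immature Neuron cells ran from 3.61 to 1337 with a median of 554, D357 left out, which alone held 3381. Late Immature Neuron cells ran from 0 to 148 (2.11) and Mature Neuron cells from 0 to 120 (median 0). Vim was detected in all 27 Early Immature Neuron cells, 20 of them at 100 or more, then in 8 of 13 (61.5%, 31.6 to 86.1) at the Late Immature and 7 of 25 (28%, 12.1 to 49.4) at the Mature Neuron stage.

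The difference of Vim was 3.10 from Precursor to Early Immature Neuron cells, against a larger SD of 3.15, and -5.88 from there to Late Immature Neuron cells. Without D357 these were 2.95 and -5.72, and within D316 to D434 3.15 and -5.90. Within D168 to D205 they were 1.16 and -1.96, the latter from 6 and 2 cells. Over the whole course Vim differed by -2.39, which was -1.56 with medians over cells and, for pseudocounts of 10 and 0.1, -1.18 and -4.14. The smaller difference of 1.05 from Progenitor to Precursor cells was not steady: it was 0.40 without D398, 1.63 without D242, below 1 without any one of 10 other cells (0.72 to 0.93), 0.26 without the 22 cells and 4.04 with medians over cells. It was also below 1 within D316 to D434 (0.71), with a pseudocount of 10 (0.63) and when scaled by the median of ratios (0.88).

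Within the Early Immature Neuron stage, Vim, Tubb5 and Tubb4b varied with Omp, the olfactory marker protein of mature neurons. The 5 cells with the highest Omp, D202, D168, D192, D215 and D425, held it at 2864 to 6224. Their Vim was 6.61, 4.51, 3.61, 5.61 and 4.47, the lowest of the stage. All other cells of the stage had Omp at 1337 or less and Vim at 35.6 or more. The same 5 cells held Tubb4b at 354 to 1328 and Tubb5 at 98.0 to 923, and the 6 cells in which Omp was 0 held Tubb4b at 3.46 to 255.2 and Tubb5 at 1651 to 3618. In Vim and Tubb4b these 5 cells lay within the range of Late Immature Neuron cells, and in Tubb5 all but D215 did. Of these 5, D425 alone belongs to the range D316 to D434.

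Over the 27 cells Pearson's r with Omp in log2(FPKM + 1) was -0.62 for Vim, -0.65 for Tubb5 and 0.61 for Tubb4b (Spearman's rho -0.53, -0.68 and 0.68). Without D357 it was -0.66, -0.73 and 0.64, without the 2 cells farthest from the median Omp -0.52, -0.65 and 0.60, and over the 19 cells of D316 to D434 -0.36, -0.54 and 0.49. These are descriptions over cells of 1 stage that share number ranges and differ in depth, and the way this stage was set is not given.

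**Figure D4:**
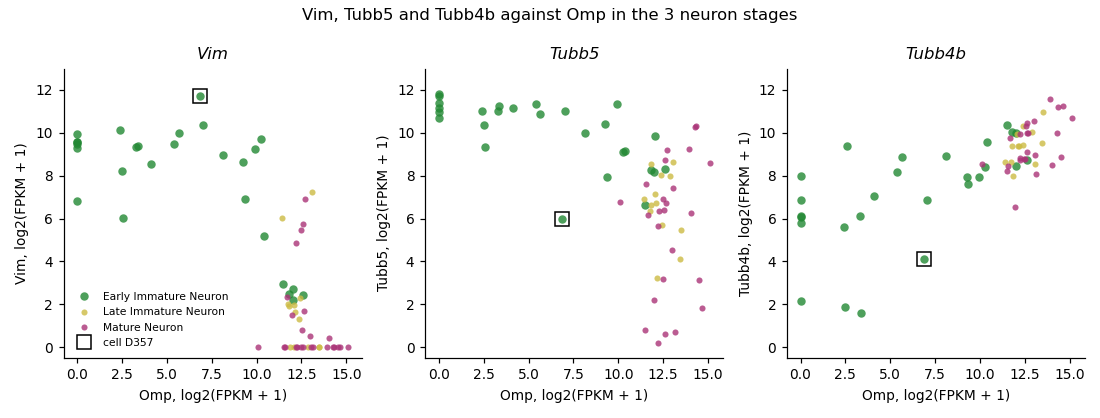
Vim, Tubb5 and Tubb4b against Omp, all as log2(FPKM + 1), in the cells of the 3 neuron stages. The Early Immature Neuron cells with Omp at 2864 or more lie near the Late Immature Neuron cells. Cell D357, boxed, stands off with Vim at 3381 and Tubb5 at 61.9.

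The members also varied together over all 85 cells, which differ in stage, depth and number range. Tubb2b correlated with Tubb5 (r = 0.66), with Vim (0.64) and with Tubb3 (0.60), while Tubb4b ran against Vim (-0.52) and Tubb5 (-0.40). By the rule of the 3 highest correlations among 6613 genes detected in at least 20% of cells, the genes most like Tubb2b were Dpysl3 (0.83), a gene of the collapsin response mediator family, Nrep (0.76) and the G protein gene Gng8 (0.75), and those most like Tubb5 were Stmn1 (0.75), which encodes the tubulin-binding protein stathmin, Dpysl3 (0.72) and Marcks (0.67). Stmn1 medians followed Tubb5 with 1091, 2037, 2306, 24.0 and 4.28 in the 5 stages. Vim was most like Dpysl3 (0.71), the actin-binding gene Tmsb10 (0.65) and Tubb2b. Dpysl3 therefore stood among the closest genes of Tubb2b, Tubb5 and Vim, with medians of 21.2, 72.8, 129, 1.04 and 0.

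Tuba1b had a different company. Its closest genes were the topoisomerase gene Top2a (0.68), the mitotic kinase gene Cdk1 (0.67) and the condensin gene Smc4 (0.66), whose medians in Progenitor cells were 93.0, 90.4 and 49.5 and in Early Immature Neuron cells 0.181, 0.168 and 0.181. Tuba1a was most like Map1b (0.62), which encodes a microtubule-associated protein, Ebf2 (0.61) and Uchl1 (0.55). Tubb4b was most like the calmodulin gene Calm2 (0.64), Jakmip1 (0.64) and Cnga4 (0.64), a subunit of the olfactory cyclic nucleotide-gated channel, whose medians went from 0.543 in Early to 242.1 in Late Immature Neuron cells. Tubb3 was most like Tubb2b, Crmp1 (0.57) and Nrep (0.55). For Tubb2a (Mllt11 0.57, Agrn 0.54, Cdc16 0.51) and Tubg1 (Fam3c 0.42, Ppp5c 0.39, Hspa4 0.37) the likeness was weaker, and in sparse values such as these it carries little.

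Other genes of the microtubule system were counted from lists made with earlier results of these data known. Among 26 enzymes that modify or sever tubulin, 9 were measured from Progenitor to Mature Neuron cells. Of these 5 were higher and 3 lower, beside 25.2% and 46.3% of all genes (median 3.54, all genes -0.81). Each of the 9 passed the detection filter through 1 of both stages alone. The filter thus largely set the direction of each, and with it the counts and the median. The polyglutamylase genes Ttll7 (5.10) and Ttll6 (4.27) were detected in 0 Progenitor and 0 Precursor cells. Ttll7 was detected in 18 of 27, 12 of 13 and 25 of 25 cells of the neuron stages, and Ttll6 in 11, 12 and 19. Sirt2, a tubulin deacetylase gene, differed by 3.78. Its medians were below 1 up to the Early Immature Neuron stage and 116 and 123 after it. From Early to Late Immature Neuron cells, where the lead passed from Tubb5 to Tubb4b, 6 of 9 measured enzymes were higher and 1 lower. The shares of all genes were 32.5% and 16% (median of the enzymes 1.86, all genes 0.41). Here too all measured enzymes but Ttll7 passed the filter through 1 stage alone. From Late Immature to Mature Neuron cells 7 were measured, 0 higher and 4 lower, beside 4.54% and 32.7% of all genes. The median was then -1.05 (all genes -0.58), and Ttll6 differed by -2.07.

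Of the microtubule binding proteins 10 were measured from Progenitor to Mature Neuron cells, 6 higher and 4 lower (median 1.70), beside 25.2% and 46.3% of all genes. All but Map1b passed the filter through 1 stage alone, so the filter largely set their direction. Map6, which stabilizes microtubules (2.99), and Mapre2, which encodes an end-binding protein (2.85), were higher, and the dendritic protein gene Map2 was lower (-2.38). For the tubulin folding machinery 16 were measured, 3 higher and 8 lower, near the 25.2% and 46.3% of all genes (median -1.03, all genes -0.81). The chaperonin subunit genes Cct4 (-4.05) and Cct5 (-3.41) were the lowest and the prefoldin gene Pfdn2 the highest (1.99). Of the genes of the gamma tubulin ring complex and the centrosome 6 were measured, with 2 higher and 3 lower, shares near the 25.2% and 46.3% of all genes. The named ones were Tubgcp3 (-1.62), Cdk5rap2 (-1.36) and Ninl (2.0).

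Of 12 other tubulin genes, only Tuba1c and Tuba4a were measured from Progenitor to Mature Neuron cells. Tuba1c had the course of Tuba1b, with medians of 17.7 in Progenitor cells and 0.698 in Early Immature Neuron cells (difference to Mature Neuron cells -3.43), and it shares 59.3% of the 50-base words of Tuba1b. Tuba4a had a median of 152 in Precursor cells, above the 54.3 of Tuba1b there, and of 0.446 in Early Immature Neuron cells. It was at 100 or more in 6 of 9 Precursor and 8 of 25 Mature Neuron cells. Tuba3b, Tuba8, Tubal3 and Tubb1 were detected in 0 of the 85 cells.

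Among 17 other intermediate filament genes 3 were measured over the whole course, all of them lower, beside 46.3% of all genes. They were the keratins Krt8 (-4.22) and Krt18 (-2.46) and the lamin gene Lmnb2 (-2.14). They were detected in 10, 10 and 8 of 11 Progenitor cells and in 4, 5 and 7 of 25 Mature Neuron cells. All 3 thus passed the filter through Progenitor cells alone, which largely set their direction. Both keratins also belong to the sustentacular list, and with other genes of it or with each other they stood at 100 or more in the Progenitor cells D174, D184 and D203 (Krt8 alone in the last). The neurofilament genes were scarce: Nefl was detected in 0, 0, 2, 2 and 1 cells of the 5 stages, Nefm and Nefh in 1 Mature Neuron cell each. Ina, which encodes internexin, was detected in 18 of 27 Early Immature Neuron cells (median 30.6), and Prph, which encodes peripherin, in 12 of 27 (median 0.367). Nes, the nestin gene, was detected in 1 Progenitor cell and no other. These genes were named after their values were seen. Vim, with its median of 607 in all Early Immature Neuron cells, was thus the highest of these genes per length in that stage.

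The repeats of 8 cells put a size on technical error. The median absolute difference between both libraries of a cell in log2(FPKM + 1) was 0.39 for Tuba1a, 0.61 for Tuba1b, 0.54 for Tubb4b, 1.08 for Tubb3, 1.27 for Tubb2b, 2.06 for Tubb5 and 2.48 for Vim. For Tubb2a it was 0.87 and for Tubg1 0. Tuba1a, detected in every cell, thus repeated closely. Single values of Tubb5 and Vim did so only in the Early Immature Neuron cells D187, D200 and D244, with differences of at most 0.83 and 0.93. In the repeated Late Immature and Mature Neuron cells Tubb5 differed by 1.86 to 3.58 and Vim by 2.35 to 4.20. The largest difference of any member was in Tubb2a, 7.75 in the Mature Neuron cell D243, from 0 to 214. Tubb2a also went from 54.1 to 0.751 in D187, and Tuba1b from 2.37 to 53.3 in D200. A value of 0 or near 0 in 1 library is therefore uncertain for these genes. Tubb5 went from 375 to 38.6 in D230, from 253.5 to 20.2 in D233 and from 103 to 8.26 in D250, all 3 Late Immature Neuron cells being lower in the second library. It went from 48.6 to 236 in D251 and from 82.3 to 302 in D243, both Mature Neuron cells. With the mean of both libraries, the Early to Late Immature Neuron difference of Tubb5 was -3.86 and that of Vim -5.52.

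Isotype shares were compared in the same way. The share of Tubb4b in beta tubulin differed by a median of 11.1 percentage points between libraries, that of Tubb5 by 13.6 and that of Tubb3 by 10.9. The largest difference was in D230, where Tubb4b went from 20.7 to 71.1% and Tubb3 from 34.0 to 3.74%, so that Tubb3 led in the first library and Tubb4b in the second. The share of Tuba1b differed by at most 4.87 points, but its first shares were only 0.0215 to 5.96%. The median shares of the 3 neuron stages, 0.503%, 0.260% and 0.127%, are all below that difference. No Progenitor or Precursor cell was repeated, so the error of the share in those stages is not known.

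**Figure D5:**
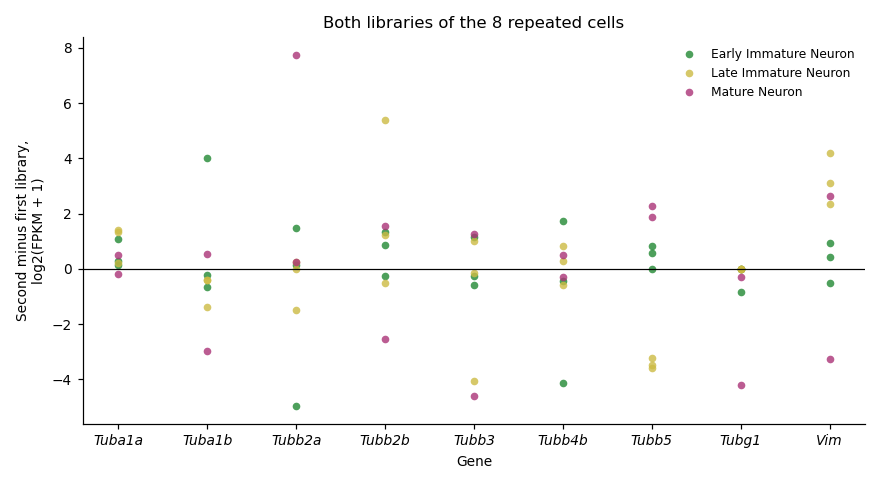
Second minus first library in log2(FPKM + 1) for the 8 repeated cells, by gene and coloured by stage. Points at 0 are cells with equal values. Tuba1a points lie within 1.40 of 0, while Tubb5 is lower in the second library of all 3 Late Immature Neuron cells.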

How the data were processed

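Each library is 1 cell. Per the submitters' processing notes, reads were handled with Cufflinks 2.2.1, TopHat2 2.0.14, cutadapt 1.2.1, Trim Galore and CASAVA 1.8.2, and the build was mm10. For their settings, the scaling and reads shared between genes the sources used here give nothing. The authors deposited 1 table of FPKM values for 93 libraries and an annotation whose genomic positions were used for coordinates. Symbols were joined by gene ID, and the highest entry of a symbol was kept.

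From these values log2(FPKM + 1) was averaged over the first library of each of 85 cells. Depth came from the step between low FPKM values. Isotype shares were taken in cells with a sum of at least 10 FPKM. Coding sequences and 50-base words came from the GENCODE vM21 transcripts on GRCm38, whose exons equal the authors' for Tuba1b, Tubb3, Tubb4b, Tubg1 and Vim. The sequences of the alpha tubulin genes are not reported here. The members and gene lists were chosen with earlier results of these data known. All members are named. From each list, the measured genes with the largest Progenitor to Mature Neuron differences are named, up to 3, and per member the 3 genes with the highest correlation among those detected in at least 20% of cells (no Olfr, Gm, Rik, ribosomal protein, mitochondrial or pseudogene symbols). The procedure was tested on simulated data. Alternatives were other pseudocounts, filters and scalings, medians, D316 to D434 alone, leaving out the cells with other cell types' genes, averaging repeats and leaving out each cell. The other single ranges and leaving out D357 alone were added after seeing the data. Python 3.11.15, numpy 2.4.6, pandas 2.3.3, scipy 1.17.1 and matplotlib 3.10.9 were used.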

Additional observations from a re-analysis of the deposited data

Results flagged for a closer look

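In 3 of the 9 genes, 1 of the 8 repeated cells stood far from the others in the absolute difference between its libraries, in log2(FPKM + 1). For Tubb2b this was the Late Immature Neuron cell D250 with 5.39, for Tubb4b the Early Immature Neuron cell D187 with 4.13, and for Tubg1 the Mature Neuron cell D251 with 4.21. For Tubb4b and Tubg1 the second library was the lower one. In all 24 groups were looked at, and chance alone marks about 1 group in 20 where values follow a normal distribution. Absolute differences cannot fall below 0, and the median for Tubg1 was 0, so the rate that applies to them is not known.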

How the results depend on the processing

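The level of each stage rests on 9 to 27 cells and on 1 FPKM being worth few fragments, and stage and number range overlap. Leaving out 1 cell took the Vim difference from Progenitor to Precursor below 1 for 11 cells and no other called difference of a member. It took uncalled ones past 1 for Tubb2a (12 cells from Precursor to Early Immature Neuron, 20 from there to Late Immature Neuron), Tubb5 (19, Late Immature to Mature Neuron), Tubg1 (4 and 10), Tubb3 (2 and 3) and Tubb4b (1). Of the other settings for these differences 403 stayed within that spread, 10 moved past it and 1 called difference reversed: Tubb3 from Late Immature to Mature Neuron cells, 0.0773 within D316 to D434. Within that range the Progenitor to Mature Neuron difference was 0.10 for Tuba1a, -2.06 for Tuba1b and 0.98 for Tubb2a. The cause was not tested.

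Of the isotype shares 151 stayed and 5 moved. The median share of Tubb3 in Progenitor cells was 26.7% within D316 to D434 and without cells holding other cell types' genes, settings that leave the same 3 Progenitor cells, against 9.66%. In Mature Neuron cells of D316 to D434 it was 32.1% for Tubb3, 48.4% for Tubb4b and 3.73% for Tuba1b.

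Counts of genes past a difference of 1 followed the detection filter by construction. From Progenitor to Precursor they were 1804 at 50% of cells, 2975 with no filter and 698 at 80%. From Precursor to Early Immature Neuron they were 2005, 3395 and 711, from Early to Late Immature Neuron 2012, 2909 and 969, from Late Immature to Mature Neuron 1427, 2212 and 577, and from Progenitor to Mature Neuron cells 3196, 5028 and 1520. Of the stage levels 75 stayed within the spread over cells under other pseudocounts and 15 moved past it. No paired analysis was possible because cells are not paired across stages and no test was made.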
